A study of Homo sapiens with 8 samples.

Results

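The genes described here are 34 members of glycolysis and of the cellular response to low oxygen, picked by gene symbol from a table of 25435 symbols. All 34 symbols were in the table, and all 34 were among the 14898 genes with enough counts to test. They fall into 5 roles, namely 4 transporters of glucose or lactate, 17 glycolytic enzymes, 3 regulatory enzymes, 3 genes of oxygen sensing and 7 other targets of the hypoxia pathway.

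Messenger RNA was sequenced from SET-2 cells, a megakaryoblastic line that carries an activating JAK2 mutation. Cells had been transduced with a vector that carries green fluorescent protein and a guide RNA, either against the splicing factor gene ZRSR2 (knockout, 4 libraries) or without a target (control, 4 libraries). All libraries therefore come from 1 line with the same JAK2 background. In each genotype the first experiment gave replicate 1 (guide 1) and replicate 2 (guide 2), and the second gave replicate 3 (guide 1) and replicate 4 (guide 2). The protocol places the RNA collection at day 20 for biological replicate 1 and at day 25 for biological replicate 2, and reading these as experiments 1 and 2 is an assumption. Experiment, day and batch cannot be told apart, because each experiment was 1 collection. Labels do not say whether guides within an experiment were separate cultures from the start, so p-values measure only the spread between these libraries.

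Glycolysis splits glucose into pyruvate in the cytosol, and lactate dehydrogenase turns pyruvate into lactate when the mitochondria do not take it up. When oxygen is low, prolyl hydroxylases stop marking the HIF alpha subunits for destruction by VHL. The stabilised alpha subunit joins ARNT and binds a short hypoxia response element near its targets, which include many glycolytic genes and the hydroxylases themselves. HIF1A is regulated mainly at the level of its protein, which was not measured here.

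Libraries held 31106042 to 71521173 counts, with the largest total in control replicate 3 and 31106042 to 46755265 in the other 7. Levels are given in CPM, which are counts scaled to a total of 1000000 per library with edgeR's TMM factors. ZRSR2 was at 18.7 to 29.4 CPM in the knockout libraries and at 37.9 to 41.1 CPM in the controls, so the targeted transcript was reduced to 62.9% and not lost (exact two-sided permutation test, p = 0.0286, n = 4 each). That p is the smallest that the 70 splits of 8 libraries allow. Within experiments, the smallest p that the 36 arrangements allow is 0.0556, and ZRSR2 reached it. All 9 markers of the megakaryocyte and erythroid lineage were detected, with a sum of 3834 to 4729 CPM. The 4 T cell markers were under 1 CPM in each library and the B cell gene MS4A1 was at 0 counts throughout, which allows up to 0.0964 CPM in the shallowest library (3 counts, counting error only). In bulk RNA, fewer cells that express a gene and less RNA per cell cannot be told apart.

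One library stood apart in these genes. Control replicate 4, from non-targeting guide 2 in experiment 2, had the highest level of all 8 libraries in 30 of the 34 members, against 20.9% of all tested genes. Its median ratio to control replicate 3 was 1.60 over the members and 0.99 over all tested genes. The same guide did not stand high in experiment 1. There control replicate 2 lay below control replicate 1 in 29 of 34 members, against 49.2% of all tested genes. Called values of members, and summaries over them, that move by over 1.5 times without control replicate 4 are therefore given with and without it. At the other end, knockout replicate 2 was the lowest of the 8 in 23 members, against 10.7% of all tested genes.

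**Figure D1:**
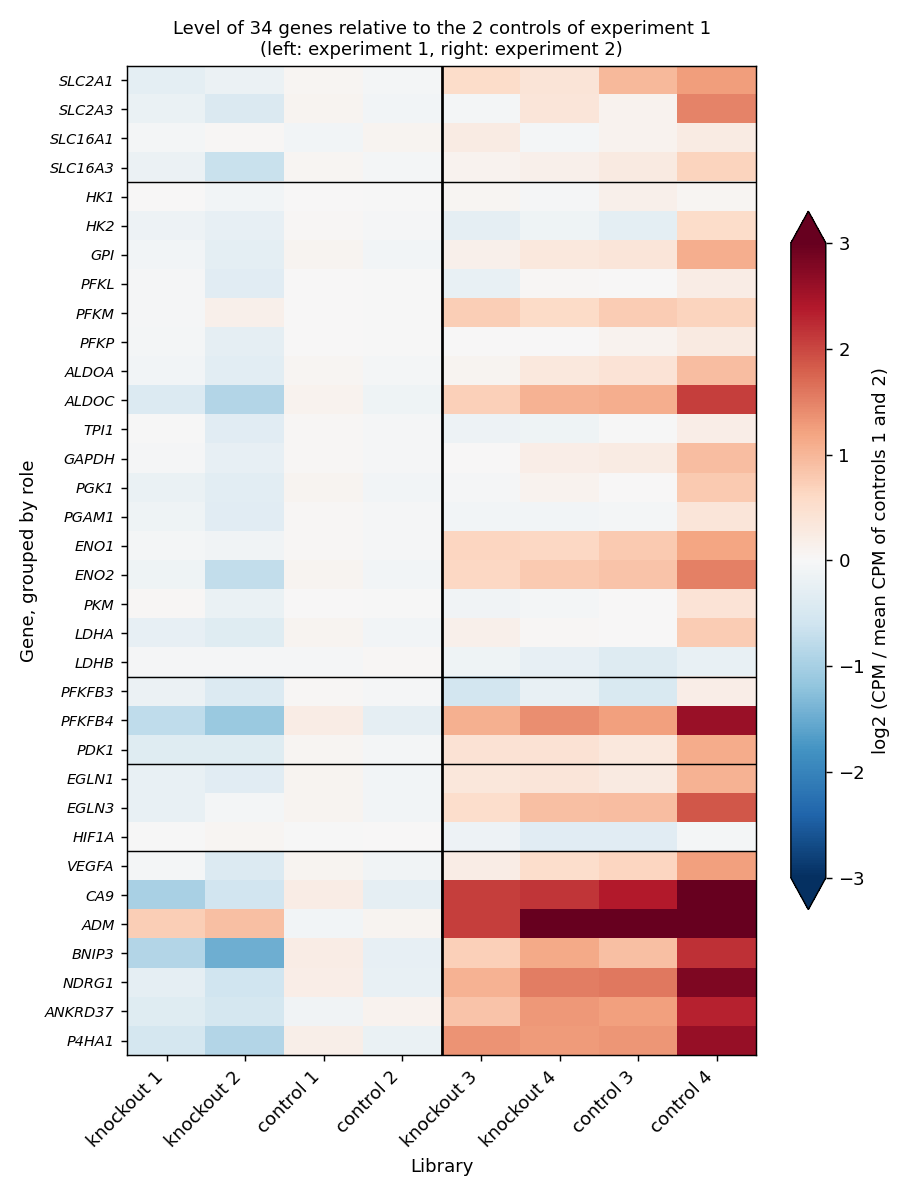
Level of each gene in each library as log2 of its CPM over the mean CPM of control replicates 1 and 2, on a colour scale cut at 3 in either direction, with horizontal lines between roles and a vertical line between experiments. Experiment 2 on the right is redder for most genes, and its last column, control 4, holds the highest CPM in 30 of 34 rows.

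Before the values, the stretches upstream of the start sites are shown for 5 of the members with the strongest rise between experiments and a mean of at least 5 CPM, and for LDHB, which fell. Each is 250 bases long, reads 5′ to 3′ on the gene's strand and ends at the base before the annotated start (RefSeq, build GRCh38.p14). Capitals mark the core of the hypoxia response element. It is spelled ACGTG, with GCGTG as its other form. On the opposite strand the first form reads CACGT, and the second form is then found as CACGC. Both strands were searched. The E-box CACGTG, bound by other factors, holds 2 overlapping matches. The stretch of ADM is chr11:10304823-10305072 on the plus strand. The others are on the minus strand, at chr3:48556804-48557053 for PFKFB4, chr10:73096867-73097116 for P4HA1, chr10:131981924-131982173 for BNIP3, chr17:28576896-28577145 for ALDOC and chr12:21657843-21658092 for LDHB.
ADM: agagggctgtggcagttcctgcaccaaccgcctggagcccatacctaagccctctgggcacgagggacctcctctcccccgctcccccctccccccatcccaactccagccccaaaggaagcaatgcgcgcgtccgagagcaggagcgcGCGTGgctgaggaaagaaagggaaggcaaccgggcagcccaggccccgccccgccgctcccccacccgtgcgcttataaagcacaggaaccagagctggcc
PFKFB4: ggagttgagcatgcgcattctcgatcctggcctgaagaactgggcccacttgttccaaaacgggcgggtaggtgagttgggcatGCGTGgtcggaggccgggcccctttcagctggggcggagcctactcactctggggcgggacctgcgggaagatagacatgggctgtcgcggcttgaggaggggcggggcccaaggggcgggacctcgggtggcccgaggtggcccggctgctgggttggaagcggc
P4HA1: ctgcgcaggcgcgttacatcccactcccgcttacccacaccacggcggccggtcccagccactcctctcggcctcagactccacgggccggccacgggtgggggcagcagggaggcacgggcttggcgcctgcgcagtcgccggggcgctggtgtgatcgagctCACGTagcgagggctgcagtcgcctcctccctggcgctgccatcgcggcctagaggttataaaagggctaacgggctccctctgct
BNIP3: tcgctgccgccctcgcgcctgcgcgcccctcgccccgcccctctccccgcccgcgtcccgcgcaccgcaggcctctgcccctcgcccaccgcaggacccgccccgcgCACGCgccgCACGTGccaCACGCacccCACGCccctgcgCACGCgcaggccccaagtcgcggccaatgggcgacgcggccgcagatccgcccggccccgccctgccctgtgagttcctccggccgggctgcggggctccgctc
ALDOC: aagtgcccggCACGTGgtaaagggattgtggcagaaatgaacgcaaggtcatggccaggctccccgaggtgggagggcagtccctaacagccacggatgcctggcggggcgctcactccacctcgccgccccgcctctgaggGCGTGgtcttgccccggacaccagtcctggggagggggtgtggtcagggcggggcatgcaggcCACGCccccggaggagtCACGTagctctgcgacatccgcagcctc
LDHB: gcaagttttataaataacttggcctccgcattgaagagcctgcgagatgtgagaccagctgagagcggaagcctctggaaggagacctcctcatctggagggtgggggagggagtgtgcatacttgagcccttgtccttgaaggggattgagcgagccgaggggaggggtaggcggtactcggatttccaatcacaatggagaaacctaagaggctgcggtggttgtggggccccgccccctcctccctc

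The upstream stretches of ADM, PFKFB4 and P4HA1 held 1 match each, those of BNIP3 and ALDOC held 6 and 5, and that of LDHB held 0. In BNIP3 the 6 matches lay between 143 and 104 bases before the start, and in ALDOC and BNIP3 a CACGTG accounts for 2 of the matches. The motif is short and common: 43.2% of 35116 windows of this length in the table held at least 1 match, and 57.9% of the 57 windows of members did. RefSeq windows were matched for 30 members, of which 25 (83.3%) had a match in at least 1 window, against 47.4% of all genes in the table. Many members have several windows, and of the 19 with 1 window 14 had a match. A match describes letters only, and binding was not measured.

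Experiment 2 was compared with experiment 1 in 1 edgeR fit of the 4 combinations of genotype and experiment, with a quasi-likelihood test and Benjamini-Hochberg adjustment over all 14898 genes at a threshold of 0.05. Of the 34 members, 23 rose, against 29.6% of all tested genes, and 2 fell, against 28.6%. With at least a 1.5-fold change required as well, 18 members rose, against 16.9% of all genes. Over the members the median log2 difference was 0.63, and over all genes it was 0.0035. The 4 libraries of experiment 2 lay above all 4 of experiment 1 in 20 members, against 28% of all genes, and below all 4 in 2 members, LDHB and HIF1A, against 28%.

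The rise was steepest among the hypoxia targets outside glycolysis, where all 7 passed the test with a median log2 difference of 2.02. Without CA9, which passed the count filter only through experiment 2, this is 6 of 6 with a median of 1.95, and 22 of 33 over all roles. ADM encodes adrenomedullin, a secreted peptide that widens vessels. Its levels in experiment 1 were 1.43 and 1.61 CPM in knockout and 0.809 and 0.915 CPM in control. In experiment 2 they were 3.61 and 9.26 CPM in knockout and 6.84 and 17.7 CPM in control. No library of experiment 2 reached down into experiment 1, and the level was 7.68-fold higher (log2 2.94, SE 0.37, edgeR adjusted p 6.94e-05). P4HA1, a subunit of the hydroxylase that modifies prolines of collagen, was at 37.6 to 77.3 CPM in experiment 1. In experiment 2 it stood at 174, 166 and 171 CPM in knockout 3, knockout 4 and control 3, and at 418 CPM in control 4. Its log2 fold change was 2.05 (SE 0.23, edgeR adjusted p 2.91e-05), and 1.66 without control replicate 4.

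NDRG1, a stress-induced gene used as a marker of hypoxia, was at 17.6 to 30.5 CPM in experiment 1 and at 54.9, 77.0, 80.0 and 185 CPM in experiment 2, in the order knockout 3, knockout 4, control 3 and control 4. The groups did not overlap, and the log2 difference was 2.02 (SE 0.23, edgeR adjusted p 4e-05). BNIP3, whose product marks mitochondria for removal by autophagy, was at 25.2 and 16.9 CPM in knockout and 53.8 and 38.7 CPM in control in experiment 1. It reached 76.4, 102, 86.6 and 211 CPM in the same order in experiment 2. The rise was 3.69-fold (log2 1.88, SE 0.25, edgeR adjusted p 9.82e-05), and the log2 value was 1.49 without control replicate 4.

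The other targets moved the same way. CA9, a carbonic anhydrase of the cell surface that is often used as a hypoxia marker, had 4 to 8 counts per library in experiment 1, at 0.112 to 0.259 CPM, against 0.924 to 2.75 CPM in experiment 2. The sign of its log2 difference of 2.95 is therefore fixed by that filter. ANKRD37, an ankyrin repeat gene known as a HIF target, went from 1.23 to 1.89 CPM in experiment 1 to between 3.22 and 8.71 CPM in experiment 2. VEGFA, the main growth factor of blood vessels, was at 87.1 to 123 CPM and then at 136 to 270.5 CPM, higher by 0.79 (SE 0.13) in log2 units.

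Among the genes of oxygen sensing, the hydroxylases rose while the transcript of their substrate fell slightly. EGLN1, the main prolyl hydroxylase of HIF, was at 29.96 to 40.0 CPM in experiment 1 and at 47.9, 48.7, 45.1 and 77.3 CPM in experiment 2. EGLN3, the hydroxylase most strongly induced by HIF in many cells, was at 1.91 to 2.36 CPM and then at 3.20, 4.17, 4.25 and 8.13 CPM. On the log2 scale EGLN1 rose by 0.66 (SE 0.14; 0.44 without control replicate 4) and EGLN3 by 1.15 (SE 0.22). HIF1A was at 130.3, 138, 131 and 133 CPM in knockout 1, knockout 2, control 1 and control 2, and at 119, 104, 104 and 126 CPM in experiment 2. This is a small difference without overlap, with a log2 value of −0.24 (SE 0.08, edgeR adjusted p 0.0282). Leaving out 1 library at a time, 6 of 8 fits lost the HIF1A call, with adjusted p-values up to 0.0972.

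**Figure D2:**
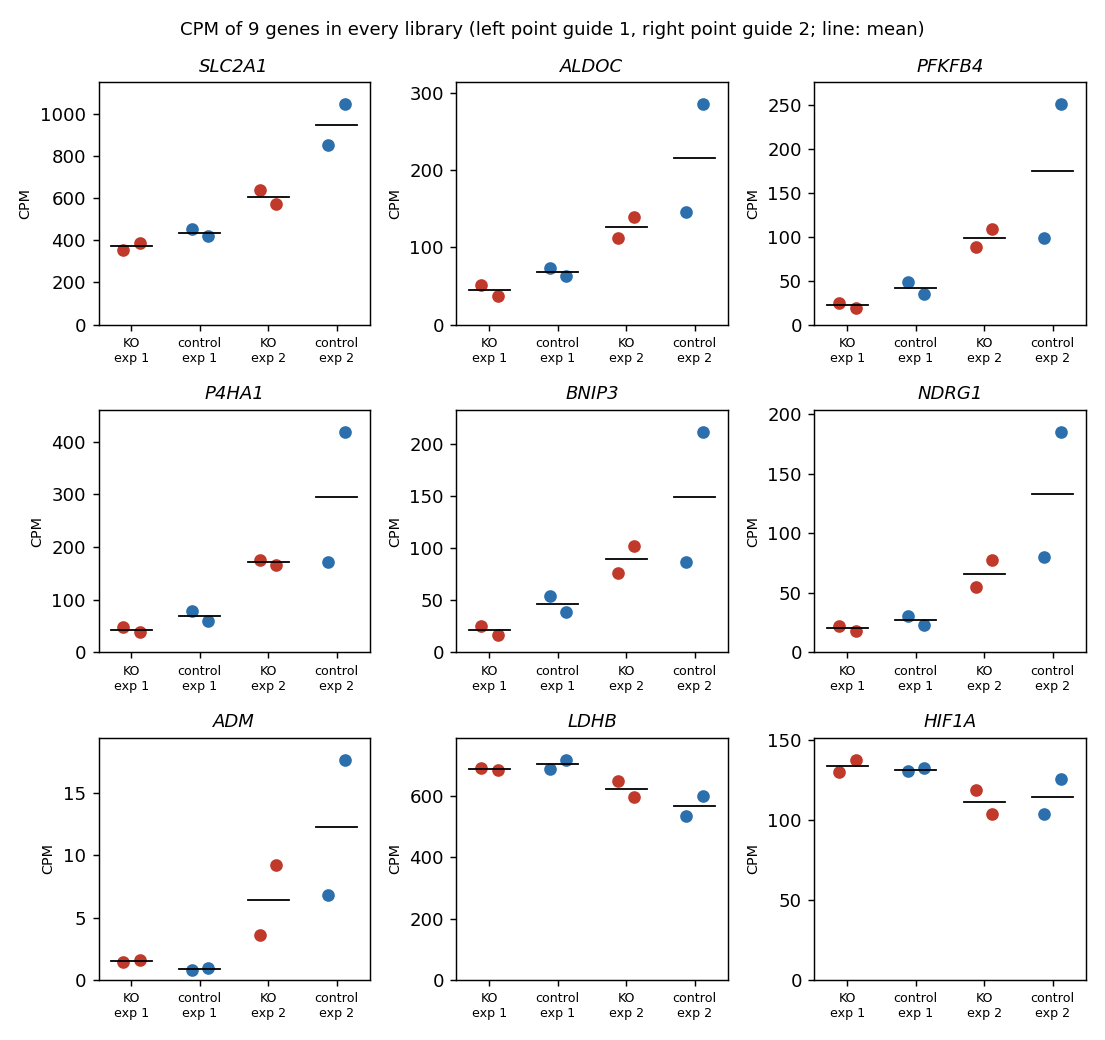
CPM of 9 genes, 1 panel each with the axis from 0, in the 4 combinations of genotype and experiment, where red points are knockout and blue points control libraries, the left point of a pair is guide 1, the right point is guide 2 and the line is their mean. In P4HA1 the 3 libraries of experiment 2 other than control 4 lie between 166 and 174 CPM, while control 4 is at 418 CPM, and LDHB and HIF1A are lower in experiment 2.

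The regulatory enzymes split. PFKFB4 and PFKFB3 make fructose 2,6-bisphosphate, the strongest activator of phosphofructokinase, and PDK1 keeps pyruvate out of the mitochondria by inhibiting pyruvate dehydrogenase. PFKFB4 was at 24.6 and 19.2 CPM in knockout and 48.9 and 34.7 CPM in control in experiment 1, and at 87.9, 109, 98.2 and 251 CPM in experiment 2. It rose 4.34-fold (log2 2.12, SE 0.25, edgeR adjusted p 4.36e-05), and without control replicate 4 the log2 value was 1.70. PDK1 rose by 0.78 (SE 0.14) on the log2 scale, from 33.3 to 44.6 CPM in experiment 1 to 53.4 to 93.6 CPM. PFKFB3 did not pass, at 50.8 to 69.3 CPM against 46.4 to 78.1 CPM, and without control replicate 4 it was called lower, at −0.27 in log2 units (edgeR adjusted p 0.0328).

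Of the 17 glycolytic enzymes, 9 rose, 1 fell and 7 did not pass the threshold. ALDOC, the aldolase known from brain, showed the strongest rise of the enzymes. It was at 51.7 and 37.0 CPM in knockout and 73.7 and 62.6 CPM in control in experiment 1, and at 113, 139.7, 146 and 285 CPM in experiment 2. Its log2 fold change was 1.58 (SE 0.19, edgeR adjusted p 4.89e-05), while ALDOA, the aldolase of most tissues, rose by 0.54 (SE 0.11). ENO2, the neuronal enolase, rose by 1.17 (SE 0.15) and ENO1, its ubiquitous partner, by 0.86 (SE 0.08). ENO1 was among the most precise of these, at 2081 to 2298 CPM in experiment 1 and at 3505, 3438, 3887 and 5081 CPM in experiment 2.

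The other enzymes that rose were PFKM (0.66), GPI (0.60), GAPDH (0.44), LDHA (0.42) and PGK1 (0.37), in log2 units. Without control replicate 4, GPI was at 0.38, GAPDH at 0.25 and LDHA at 0.21, and all 3 still passed in edgeR. They span the steps from glucose 6-phosphate isomerisation to lactate. PFKM, the muscle type of phosphofructokinase, was at 61.0 to 69.5 CPM and then at 93.9 to 107 CPM, and control replicate 4 at 100.1 CPM was not its highest library. PGK1, which makes ATP from bisphosphoglycerate, was at 971 CPM in control 4 and at 552 to 604 CPM in the other libraries of experiment 2, against 451 to 591 CPM in experiment 1. Without control replicate 4 its log2 difference was 0.14 (edgeR adjusted p 0.0839), and 7 of the 8 fits with 1 library left out lost the call. For LDHA 3 of these 8 fits did.

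LDHB, the subunit of lactate dehydrogenase that favours turning lactate back into pyruvate, was the enzyme that fell. Its levels were 690.3, 684, 688 and 719 CPM in knockout 1, knockout 2, control 1 and control 2. In experiment 2 they were 649, 598, 535 and 599.9 CPM. The log2 fold change was −0.23 (SE 0.07, edgeR adjusted p 0.0122), and −0.21 with an adjusted p of 0.0721 without control replicate 2. HK1, HK2, PFKL, PFKP, TPI1, PGAM1 and PKM did not pass, with log2 differences of 0.05 to 0.18. HK1 and HK2 trap glucose in the cell, TPI1 joins the 2 triose branches, and PKM makes the last ATP of the pathway. For HK2 the difference was −0.15 without control replicate 4 and 0.27 without control replicate 3, where it passed, so its sign depends on which of these is kept.

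Of the transporters, SLC2A1 (the glucose transporter GLUT1), SLC2A3 (GLUT3) and SLC16A3 (the lactate exporter MCT4) rose, and SLC16A1 (MCT1) did not pass. SLC2A1 was at 354, 388, 454 and 419 CPM in experiment 1, in the order knockout 1, knockout 2, control 1 and control 2. In experiment 2 it was at 638, 574, 851 and 1045 CPM. It rose in both genotypes, and within each experiment both knockout libraries lay below both controls. The log2 fold change between experiments was 0.91 (SE 0.08, edgeR adjusted p 7.79e-06), the smallest adjusted p among the members. SLC2A3 was at 161, 212 and 177 CPM in knockout 3, knockout 4 and control 3, and at 463 CPM in control 4, against 123 to 175 CPM in experiment 1. Its log2 fold change of 0.71 (SE 0.23) was 0.28 without control replicate 4, and 3 of 8 fits with 1 library left out lost the call.

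The rise was present in each genotype taken alone. In controls 21 members rose, against 23.9% of all genes, and in knockout 17 members rose, against 18.9% of all genes. Without control replicate 4 the contrast over both genotypes called 22 members higher, against 29.6% of all genes, and 3 lower, against 29.97%, with a median over the members of 0.39. In controls alone 17 were higher, against 21.6% of all genes, and 4 lower, against 22.0%. There the single control library of experiment 2 was assumed to vary like the other groups. Experiment 2 libraries other than control 4 lay above all of experiment 1 in 20 members, against 30.4% of all genes.

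**Figure D3:**
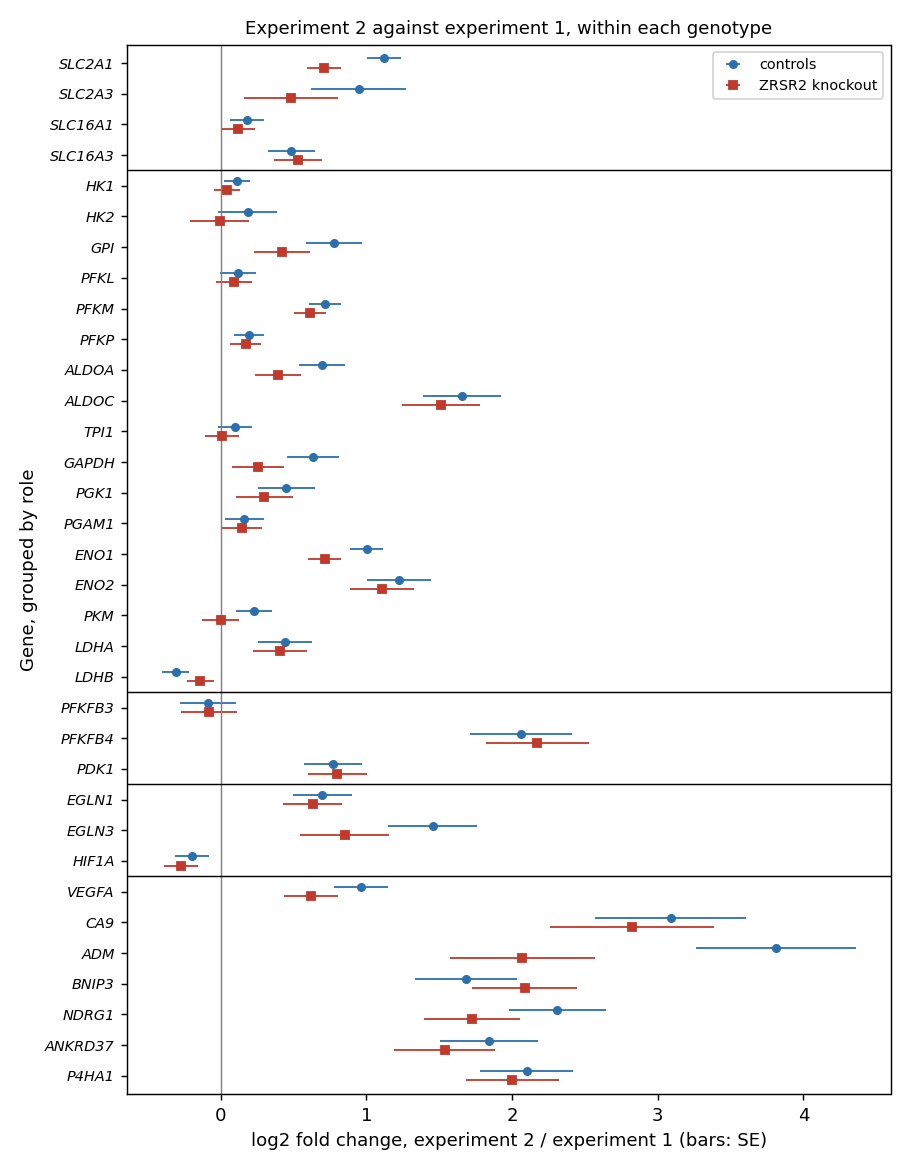
Log2 fold change of experiment 2 over experiment 1 for each gene, in control libraries (blue circles) and knockout libraries (red squares), with bars of 1 SE, grouped by role. All 7 genes of the lowest group lie right of 0 in both genotypes, from 0.62 for VEGFA in knockout to 3.81 for ADM in controls, and LDHB and HIF1A lie left of 0.

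Ratios between isoenzymes within a library do not depend on how libraries are scaled to each other, so they were set side by side for 10 pairs. In 3 of 10 pairs the experiments did not overlap. LDHA to LDHB was at −0.02 to 0.42 in log2 units in experiment 1 and at 0.58 to 1.31 in experiment 2. ALDOC to ALDOA moved from between −5.01 and −4.38 to between −3.80 and −3.31. PFKFB4 to PFKFB3 moved from between −1.40 and −0.50 to between 0.92 and 1.68, and since lengths differ the sign does not say which gene was higher. The other 7 pairs overlapped between experiments, and HK2 to HK1 and PFKP to PFKL had mean differences of −0.02 and 0.08.

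**Figure D4:**
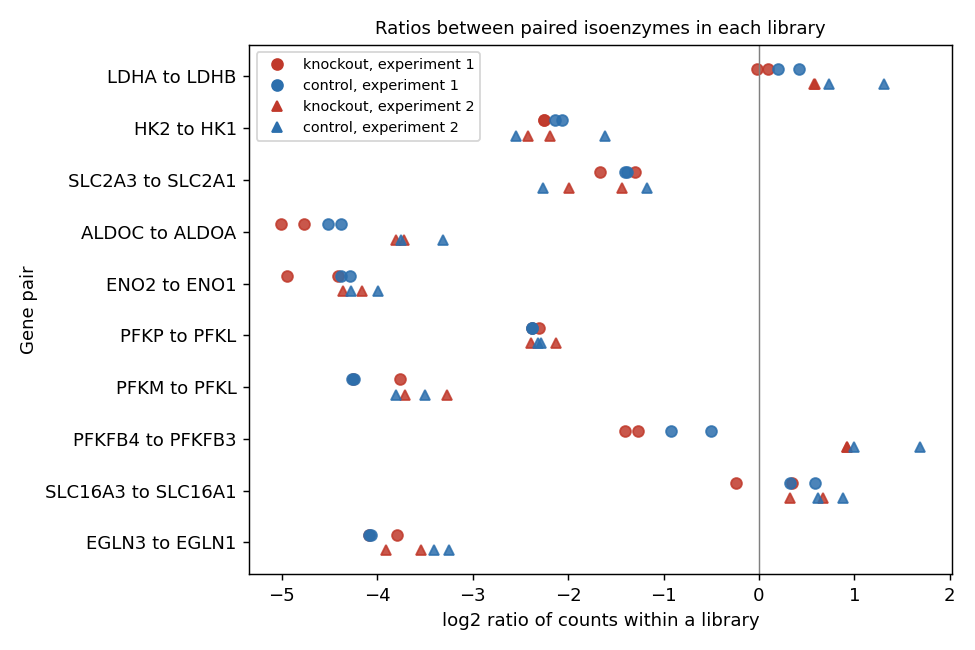
Log2 ratio of the counts of paired genes in each of 8 libraries, circles for experiment 1 and triangles for experiment 2, red for knockout and blue for control. PFKFB4 to PFKFB3 lies at or under −0.50 in all 4 libraries of experiment 1 and at or over 0.92 in all 4 of experiment 2.

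Together the 17 glycolytic enzymes took 1.37% and 1.24% of all counts in knockout and 1.47% and 1.40% in control in experiment 1. In experiment 2 they took 1.60% and 1.71% in knockout and 1.72% and 2.47% in control. Every library of experiment 2 lay above those of experiment 1. Without GAPDH and ENO1 the experiments touched, with knockout replicate 3 at 0.931% and control replicate 1 at 0.934%. Levels of different genes compare only per length, and here the order depended on the length chosen. Per kilobase of the median coding transcript in GENCODE 29, ENO1 stood at 3517 CPM and GAPDH at 2400.1 CPM in the controls of experiment 1, whereas per kilobase of the longest transcript GAPDH stood at 1637 and ENO1 at 955. LDHB stood above LDHA in those controls by both lengths (946 against 673, and 457 against 362 CPM per kilobase). In the controls of experiment 2 LDHA stood above LDHB by both (912 against 763, and 490 against 369), as means of 2 libraries. Control replicate 3 alone had LDHB above LDHA per kilobase of the median transcript, at 719 against 683.

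Knockout was compared with control to ask what ZRSR2 loss does to these genes. Over all 8 libraries 0 members and 0% of all genes passed in edgeR with genotype as the only term, and the unadjusted p was under 0.05 in 0 members. When experiment was added as a block, 0 members and 0% of genes passed. The direction was nevertheless shared, since 33 of 34 members had a lower fitted level in knockout with the block, against 48.6% of all genes, and 26 had an unadjusted p under 0.05, against 4.63% of all genes. The median log2 difference over the members was −0.33, and 0.0035 over all genes. Without control replicate 4 the blocked fit had 30 members lower, against 44.8% of all genes, a median of −0.14, and 10 members with an unadjusted p under 0.05. The 34 genes share the same 8 libraries, so they are not independent observations.

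SLC2A1 had the smallest unadjusted p with the block, with knockout at −0.44 in log2 units (SE 0.10, unadjusted p 0.000647, edgeR adjusted p 0.333), which is not significant. The next were ALDOC at −0.70 (SE 0.18), BNIP3 at −0.93 (SE 0.24), PFKFB4 at −0.88 (SE 0.23) and P4HA1 at −0.74 (SE 0.21), with edgeR adjusted p-values of 0.596 to 0.667. Without control replicate 4 they were −0.44, −0.65, −0.53 and −0.40 in the same order, each with an edgeR adjusted p of 0.846. DESeq2 with the same block called SLC2A1, at −0.44 (SE 0.10, adjusted p 0.0149), and no other member among its 31 genes. Without control replicate 4 DESeq2 with the block gave SLC2A1 −0.34 (SE 0.08) and an adjusted p of 0.0145, and edgeR gave −0.32 (SE 0.07) and 0.464. Without control replicate 3, edgeR with the block called BNIP3, PFKFB4 and P4HA1 lower among 12 genes (0.0803% of all), and DESeq2 called 16 members, all lower, among 119 genes (0.828%).

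The comparison was then made within each experiment. In experiment 1, 0 members and 0% of genes passed in edgeR. Of 34 members 31 were lower in knockout, against 49.4% of all genes, with a median of −0.23. Both knockout libraries lay below both controls in 23 members, against 17.9% of all genes. BNIP3 at −1.14 (SE 0.35) and PFKFB4 at −0.94 (SE 0.35) had the largest differences. Without knockout replicate 2 the median in experiment 1 was −0.13, with 30 of 34 lower, against 48.5% of all genes. ADM went the other way there, at 1.43 and 1.61 CPM in knockout against 0.809 and 0.915 CPM in control.

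In experiment 2, 0 members and 0% of genes passed in edgeR. Of 34 members 33 were lower in knockout, against 49.4% of all genes, with a median of −0.39. Both knockout libraries lay below both controls in 17 members, against 12.3% of all genes. This depended on control replicate 4. Without it, 20 of 34 members were lower, against 45.3% of all genes, and the median was −0.08. Both knockout libraries lay below control replicate 3 in 18 members, against 33.9% of all genes. Without control replicate 3 the median was −0.74 and 15 members passed, all lower, against 1.03% of all genes in either direction. For P4HA1, knockout at 174 and 166 CPM was level with control 3 at 171 CPM and far under control 4 at 418 CPM. SLC2A1 differed from that pattern, as knockout at 638 and 574 CPM lay below both control 3 at 851 CPM and control 4 at 1045 CPM.

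**Figure D5:**
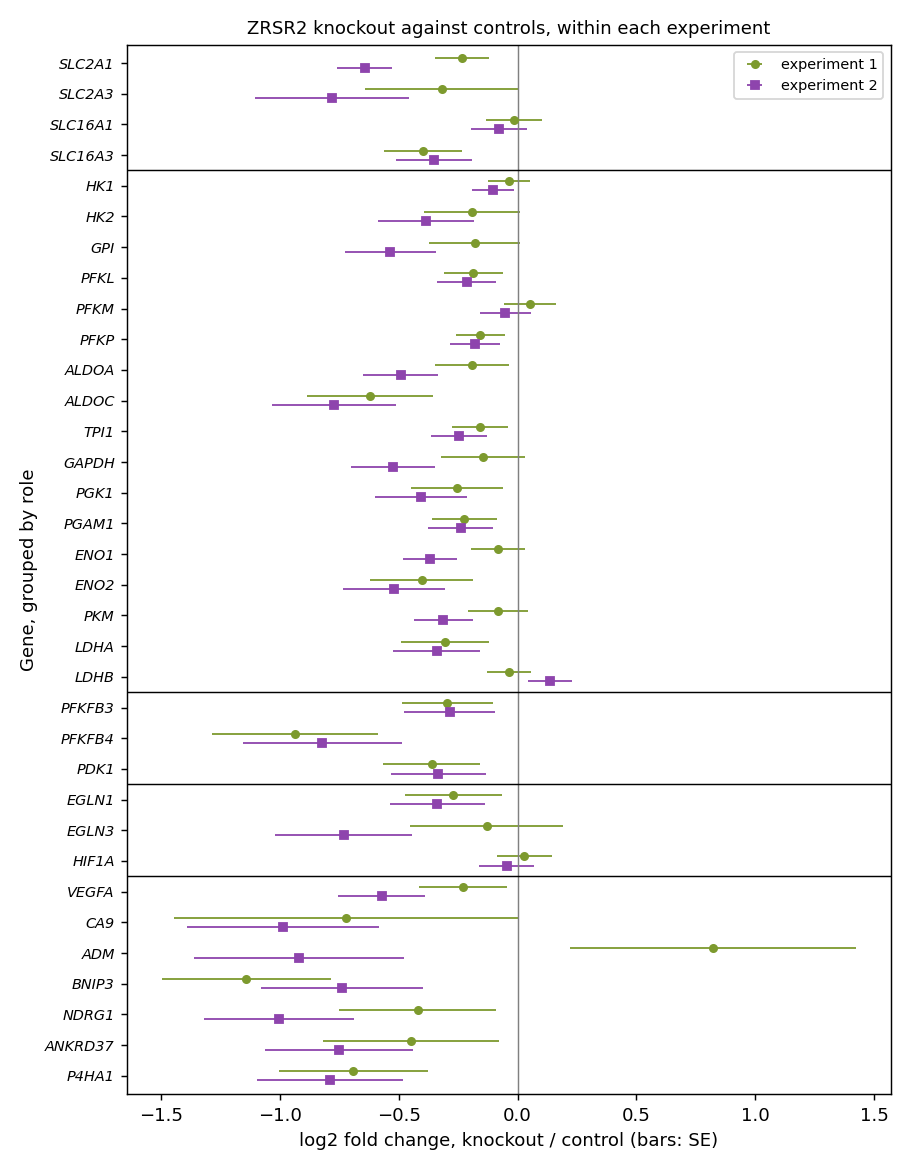
Log2 fold change of knockout over control for each gene in experiment 1 (green circles) and experiment 2 (purple squares), with bars of 1 SE from the shared fit, grouped by role. Most points lie left of 0 in both experiments, 31 of 34 in experiment 1 and 33 of 34 in experiment 2, and ADM lies right of 0 in experiment 1 alone.

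Within both experiments at once, 11 members had both knockout libraries below both controls, against 3.26% of all genes. They were SLC2A1, SLC16A3, PFKP, ALDOA, ALDOC, GAPDH, PGAM1, ENO1, ENO2, CA9 and NDRG1. For CA9 the separation in experiment 1 rests on 4 and 7 counts in knockout and 8 and 6 in control, and holds only after scaling. Over all 8 libraries together the genotypes separated in PGAM1 alone, at 92.0 to 110.0 CPM in knockout and 110.4 to 149 CPM in control, so the nearest libraries differed by less than 1 CPM. Left-out libraries changed the count of 11 to between 11 and 23, and it was 23 without control replicate 3, against 7.38% of all genes, and 18 without knockout replicate 4, against 7.46%. The difference between the knockout effects of the experiments was called in 0 members and 0% of genes. The smallest unadjusted p-values for it were 0.0283 for SLC2A1 (−0.41, SE 0.16) and 0.0398 for ADM (−1.74, SE 0.74), and neither passed adjustment in edgeR.

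Guides of the same genotype gave the background between libraries. ZRSR2 guide 2 against guide 1 called 0 members and 0% of genes in edgeR, with a median log2 difference of −0.001 over the members. Non-targeting guide 2 against guide 1 also called 0 members and 0% of genes. Lower levels for guide 2 were seen in 2 of 34 members, against 51.5% of all genes, and the median was 0.37. With the experiment as a block it was 0.30, beside −0.33 between genotypes. Control replicate 4 lay above control replicate 3 in 32 members, against 48.6% of all genes. In experiment 1 non-targeting guide 2 lay below guide 1 in 29, against 49.2%.

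Other genes of the pathway were taken from 5 lists. Of 43 tested genes of a list of further hypoxia-induced genes, 32 rose and 3 fell between experiments, with a median log2 difference of 0.63, where 29.6% of all genes rose and 28.6% fell. LOX, which crosslinks collagen, was at 0.183 to 0.744 CPM in experiment 1. In experiment 2 it was at 6.78, 6.68, 6.86 and 23.3 CPM, and rose by 4.74 (SE 0.45) in log2 units. LOX, PPP1R3C and RORA, all among the 32, passed the count filter only through experiment 2, so their rise carries no weight of its own. ANGPTL4, a secreted inhibitor of lipoprotein lipase, rose by 3.21 (SE 0.28), and CCNG2, an atypical cyclin, by 2.36 (SE 0.18). In these genes too control replicate 4 stood highest, with ANGPTL4 at 60.1 CPM against 16.3 to 25.5 CPM in the rest of experiment 2. Among those that fell were TFRC, the transferrin receptor, by 0.44 and JMJD6 by 0.26. Control replicate 4 did not share the fall of TFRC. Its levels were 1240 to 1377 CPM in experiment 1. In experiment 2 TFRC was at 812, 924, 721 and 1430 CPM, in the order knockout 3, knockout 4, control 3 and control 4. In experiment 2, 42 of the 43 had a lower fitted level in knockout, against 49.4% of all genes, with a median of −0.38 and 0 calls. Without control replicate 4 this was 20 of 43, against 45.3% of all genes, with a median of 0.0068.

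Of 21 regulators of HIF, 7 rose and 2 fell between experiments, with a median of −0.04. The 7 are near the 29.6% of all genes that rose, and HIF3A, among them, passed the count filter only through experiment 2. MXI1, an antagonist of MYC, rose by 1.75 (SE 0.15) to between 41.0 and 86.6 CPM. EPAS1, which encodes HIF-2 alpha, rose by 1.01 (SE 0.10), from 60.4 to 85.9 CPM in experiment 1 to 116 to 159 CPM, and ARNT, the partner of the alpha subunits, by 0.75 (SE 0.09). EPAS1 thus moved opposite to HIF1A. HSP90AA1, a chaperone of HIF1A protein, and CITED2, which competes with HIF for its coactivators, fell by 0.65 and 0.47.

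Of 26 other glycolytic isoenzymes and sugar handling genes, 10 rose and 6 fell. SLC2A5 and SLC2A12 among the 10, and GAPDHS among the 6, passed the count filter only through the experiment where they were higher. Over all genes 29.6% rose and 28.6% fell, and with lists this short the counts here and in the next lists are read as descriptions only. PYGL, the liver glycogen phosphorylase, rose by 0.96 (SE 0.09), and the sugar transporters SLC2A14 and SLC2A10 rose by 0.80 and 0.74. SLC2A4 (GLUT4), PYGB and PFKFB2 fell by 0.72, 0.66 and 0.46. Around the entry of pyruvate into mitochondria 3 of 16 genes rose and 6 fell, with MPC2 (0.61) and PDK3 (0.41) higher. PDHB, a subunit of pyruvate dehydrogenase, fell by 0.71 (SE 0.07), and MPC1 and PC fell by 0.47 and 0.35. In the pentose phosphate pathway 2 of 10 rose, H6PD and PGD at 0.74 and 0.46, and 3 fell, among them RPIA and TKT, by 0.59 and 0.52. None of these 5 lists had a gene called between genotypes in edgeR with all 8 libraries.

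Some cell type markers also differed between experiments, and their part in these results was not tested. The summed level of 4 fibroblast markers was 2.50 to 3.40 CPM in experiment 1 and 6.43 to 7.58 CPM in experiment 2. The rise was carried by COL1A2 and PDGFRB, with COL1A1 under 1 CPM throughout. DCN did not rise, at 0.615 to 0.842 CPM in experiment 1 and 0.180 to 0.824 CPM in experiment 2. The 4 B cell markers summed to 28.6 to 35.1 CPM and 56.9 to 73.3 CPM, nearly all of it CD79A and CD79B. CD79A was at 10.3 to 11.5 CPM in experiment 1 and at 32.4 to 51.1 CPM in experiment 2. CD79B overlapped between experiments, at 17.4 to 23.6 CPM and 22.1 to 26.6 CPM. The monocyte markers overlapped between experiments, with sums of 217 to 233 CPM and 207 to 267 CPM, nearly all of it LYZ. Counts of some members are uncertain by their sequence. In GENCODE 29, 16 members have processed or other pseudogenes named after them, 62 of these for GAPDH and 39 for BNIP3. Of all 147 such pseudogenes 3 are among the deposited symbols, with 0 for GAPDH and 0 for BNIP3. RSEM, which the submitters' processing notes name, divides reads between matching entries of its own reference. Whether reads of the other pseudogenes were counted for the members was not tested. Exons of a gene on the opposite strand overlap 17 members, and whether counting used strand is not given in the sources used here.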

How the data were processed

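Poly(A) RNA of 8 libraries was prepared with a Kapa mRNA HyperPrep kit, per the labels' protocols. The authors deposited RSEM expected counts per gene symbol, and the deposited values were whole. Per the submitters' processing notes, cutadapt 1.11, RSEM 1.2.30 and hg19 were used. The aligner, annotation and strand setting are not given in the sources used here. Columns were matched to libraries by name. Counts were filtered with filterByExpr (minimum count 10), scaled by TMM and tested with edgeR 4.0.16 (quasi-likelihood, Benjamini-Hochberg over 14898 genes, threshold 0.05) in R 4.3.3. DESeq2 1.42.0 was an alternative. Genotype was tested alone, with experiment as a block, and in 4 combinations with experiment. Libraries of the same experiment deviated together (correlation of deviations from genotype means 0.678 to 0.846 over 8 pairs). Those of different experiments deviated oppositely (−0.816 to −0.709), which largely follows from taking deviations from those means and is not a separate observation. Figures were drawn with matplotlib 3.10.9 in Python 3.11.15. The genotype-only fit and the contrast between experiments were tested on simulated data, each with no other effect present. The other fits were not tested this way. Full statistics are given for at most 6 members per direction of largest change (mean level 5 CPM or more) and for up to 5 of smallest p between genotypes. Members and lists were chosen with earlier results of these data known. A further ZRSR2 guide of the design was not analysed here. Some genes of the lists are not reported here by name.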

Additional observations from a re-analysis of the deposited data

Results flagged for a closer look

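Each group of 4 libraries was searched for a library far from the other 3 (gap over range above Dixon's 95% value). Of 140 groups, 18 had one, and chance gives about 1 in 20, or 7. Control replicate 4 accounted for 16 of the 18.

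Among the 4 controls, control replicate 4 stood apart in SLC2A3 (463 CPM, others 158 to 177), PFKL (1395 CPM, others 1186 to 1208), PGK1 (971 CPM, others 531 to 591), PKM (2106 CPM, others 1566 to 1605) and LDHA (1482 CPM, others 827 to 920.0).

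Within experiment 2 it stood apart in SLC2A3 again at 463 CPM, with the others at 161 to 212, and in PGK1 and LDHA at 971 and 1482 CPM. The same held for HK2 (235 CPM, others 132 to 147), GPI (1768 CPM, others 913 to 1054), PFKFB4 (251 CPM, others 87.9 to 109) and PGAM1 (149 CPM, others 109.7 to 110.4). PDK1 (93.6 CPM, others 53.4 to 58.3), CA9 (2.75 CPM, others 0.924 to 1.14), EGLN1 (77.3 CPM, others 45.1 to 48.7) and P4HA1 (418 CPM, others 166 to 174) completed the set. These genes share the library, so they are not separate observations.

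HK1 was low in knockout replicate 2 in experiment 1, at 649 CPM against 689 to 698. Control replicate 3 had 71521173 counts, while the other controls had 31106042 to 36544665. The cause was not tested for any of these.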

How the results depend on the processing

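Of 898 alternative values over 78 results, 818 kept their direction and their side of the threshold. Between genotypes over all 8 libraries, where edgeR called 0 genes, the replicate block, with the experiment number as the block term, also called 0 genes and 0 members in edgeR. DESeq2 called 4 genes, and with the replicate block 31 genes and 1 member (119 and 16 without control replicate 3, 35 and 1 without control replicate 4). Within experiment 1 DESeq2 called 5 genes, and within experiment 2 it called 13 genes and 1 member. With no count filter, edgeR called 40 genes and 4 members in experiment 1, 116 and 15 in experiment 2, and 5 and 1 for the difference of the effects.

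Leaving out 1 library at a time, the knockout calls ranged from 0 to 2 genes in experiment 1, from 0 to 154 genes and 0 to 15 members in experiment 2, and from 0 to 12 genes and 0 to 3 members with the replicate block. The highest experiment 2 and block values were without control replicate 3. Members called lower in experiment 2 ranged from 0 to 3 over both genotypes, from 0 to 4 in controls and from 0 to 1 in knockout. All genes called between experiments ranged from 4094 to 7233 in controls and from 2787 to 6946 in knockout. With all 8 libraries, 28.6% of all genes were called lower in experiment 2 over both genotypes. In controls alone this was 23.0%, and in knockout alone 18.0%. Members below control without overlap in both experiments ranged from 11 to 23, against 4.50% to 7.46% of all genes.

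Some differences changed sign with 1 library left out. The experiment difference ranged from −0.15 (without control replicate 4) to 0.27 (without control replicate 3) for HK2, from −0.27 to 0.067 for PFKFB3 (the same libraries) and from −0.023 (without knockout replicate 2) to 0.14 for TPI1, which was at −0.0034 without control replicate 4. With genotype as the only term, the genotype difference ranged from −1.30 to 0.0058 for PFKFB4 and from −1.12 to 0.065 for P4HA1. Both were highest without control replicate 4. That fit has no term for the experiment, and a left-out library leaves the experiments unequally shared between genotypes. With the experiment as a block, PFKFB4 was at −0.53 and P4HA1 at −0.40 without control replicate 4. Of these, HK2 passed the test without control replicate 3, and PFKFB3 without control replicate 4. For ZRSR2 the mean difference of −14.7 CPM had a permutation p of 0.0556 within experiments. The values without CA9, and those that leave a library out of the blocked, within-experiment and single-genotype fits, were chosen after seeing the data. The cause of these changes was not tested. With 2 libraries per genotype and experiment, small differences are not detectable, and CA9 did not pass a filter of 10 counts in every library.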
